A study of Macaca mulatta with 16 samples.

Results

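A set of 369 stretches of chromatin was open in every library of naive T cells and in no library of memory T cells from the blood of 2 healthy rhesus macaques. They were found by merging the peaks of 16 peak lists wherever peaks shared at least 1 bp, which gave 55449 regions. A region was called open in a library where its list held a peak, and members were chosen by these calls: a peak in all 8 naive lists, CD4+ and CD8+ alike, and in none of the 8 memory lists. They make up 0.666% of all regions and 1.32% of the 27858 regions open in all 8 naive lists. That choice rests on the naive and memory calls themselves, so the difference between naive and memory cells is a description here and was not tested.

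Chromatin was mapped by ATAC-seq, in which a transposase cuts and tags accessible DNA. The groups were naive CD8+, naive CD4+, memory CD8+ and memory CD4+ T cells, each taken after and before 2-hydroxypropyl-beta-cyclodextrin, a cyclic sugar that takes up cholesterol. Animals received 1 ml/kg of a 15% (w/w) solution under the skin daily for at most 120 days, and the libraries before it came from the same animals without treatment. Each of the 8 groups held 2 libraries, 1 from animal 2 (RhM22 in the titles) and 1 from animal 1 (RhDBCb), and every library was made from 10000 sorted cells. No untreated animal was followed over the same time, so treatment and time cannot be told apart, and the labels give neither the age of the animals nor the markers used for sorting. A peak list holds no read counts, so the depth behind it was unknown and a missing peak means that none was called in that list. Lists held 36307 to 42034 peaks, and the 2 shortest were those of the naive CD8+ cells of animal 1, with 36307 peaks before and 37966 after treatment.

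A naive T cell has not yet met its antigen; it circulates between blood and lymph nodes and is kept quiescent by transcription factors such as TCF7, LEF1, BACH2 and FOXO1. On activation some of the enhancers that serve this programme close, while enhancers of effector and memory genes open and can stay open in the resting memory cell. CD4+ helper cells and CD8+ cytotoxic cells share much of the naive programme. Genes and sequence at the regions were not used here, because positions are in the build rheMac10 and no annotation of it was used. The identity of the sorted cells could therefore not be checked against marker genes.

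The strength of a region is given as a percentile. In each naive library the area scores of the same 27858 regions, those open in all 8 naive lists, were ranked, so that a value of 20 means that 20% of these regions scored no higher. The area score is the authors' score of a peak and grows with its height and width, and a region with several peaks took that of its highest. The same regions were ranked in every library, so the percentile is not taken over more regions in a longer list.

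The naive regions were mostly weak peaks with a small number of strong ones among them. Their mean percentile over the 8 naive lists had a median of 17.1 and ran from 1.26 to 66.2. It was under 25 for 275 of the 369 members, under 10 for 104 and over 50 for 5. The deposited lists contain no score below 200, and the lowest score of a member over its 8 lists had a median of 337.2, against 1365 for all regions open in the 8 naive lists. Most of the latter, 24333, were also open in all 8 memory lists. Their median percentile was 55.7 in naive CD8+ and 55.6 in naive CD4+ lists. Regions open in 1 to 7 memory lists, grouped by that number, had medians of 16.6 to 19.8 and 12.9 to 26.1. Members had 19.4 and 13.1. Low ranks were thus shared with regions open in some memory lists, a comparison given without a test. A score of at least 400 in every naive list was reached by 131 members, at least 1000 by 12 and at least 2000 by 2.

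Ordered by its weakest naive list, the strongest member was chr5:143099321-143102285, which was also the strongest in each of the 4 naive CD4+ lists. Its percentiles were 64.9 and 66.6 in naive CD8+ cells of animal 2 and 56.9 and 56.4 in those of animal 1, after and before treatment. In naive CD4+ cells they were 72.6 and 68.9 in animal 2 and 75.1 and 68.0 in animal 1. All 4 CD4+ lists lay above all 4 CD8+ lists, and the highest points of its peaks, the summits, fell within 8 bp of each other in the 8 lists.

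Region chr2:127381193-127384418 reached 63.1 and 59.9 in naive CD8+ cells of animal 2 and 64.3 and 57.8 in those of animal 1, after and before treatment. The CD4+ percentiles were 60.05 and 58.6 in animal 2 and 53.7 and 54.8 in animal 1. The lineages overlapped in this member, and the lowest score in any naive list was 2052. Region chr19:1849058-1850983 averaged 58.6 ± 1.91 in naive CD8+ lists and 49.7 ± 1.44 in naive CD4+ lists (SD, n = 4 each), with summits within 5 bp. Region chr3:173072459-173074131 averaged 49.7 ± 3.28 in naive CD8+ lists and 53.4 ± 2.41 in naive CD4+ lists (SD, n = 4 each). The 6 next by their weakest list were chr6:136988453-136990533, chr1:62074298-62076473, chr4:147933869-147935203, chr9:7750731-7751828, chr3:857153-858903 and chr10:76022547-76024107. Each of these 6 stayed between the 35.1st and the 58.1st percentile in every naive list.

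**Figure D1:**
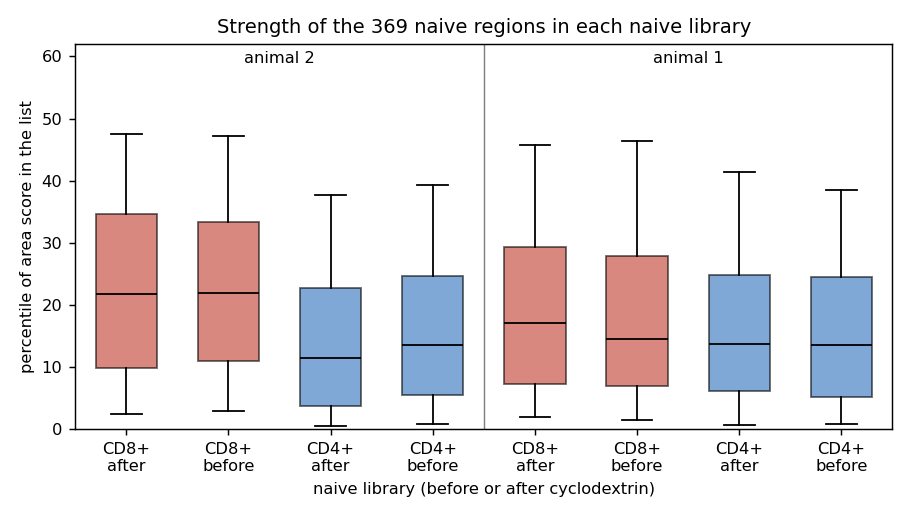
Percentile of the area score of the 369 naive regions (vertical axis, among the 27858 regions open in all 8 naive lists) in each naive library (horizontal axis). Boxes span the quartiles with the median as a line, and whiskers reach the 5th and 95th percentile of the members, with members beyond them not drawn. Medians lie between 14.5 and 21.9 in CD8+ lists (red) and between 11.5 and 13.7 in CD4+ lists (blue).

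The medians of the members in naive CD8+ lists stood in the order of list length. They were 21.8 with 41150 peaks and 21.9 with 41396 peaks in animal 2, and 17.2 with 37966 peaks and 14.5 with 36307 peaks in animal 1, after and before treatment. The 4 naive CD4+ lists held 40251 to 40842 peaks. The part of list length in the strength results was not tested.

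Some members only just met the rule. The weakest members in any list were chr13:100184938-100186091, chr5:143175254-143175773 and chr11:121867063-121869629, with lowest scores of 200.03, 200.09 and 203.0. Member chr5:143175254 lay 73.0 kb from the strongest member. Just outside were 145 regions open in all 8 naive lists and 1 memory list, and 213 open in 7 naive lists and no memory list. The strongest of the 145 were chr5:50112426-50113912, chr17:92562422-92565804 and chr18:2908399-2910048, with naive scores of 1021 to 3223 and a single memory peak scoring 260.1, 293.3 and 283.0. The strongest of the 213 were chr20:15797659-15806908, chr3:156277538-156278536 and chr19:1589467-1591091. Their mean percentiles over the 7 lists were 29.7, 27.9 and 27.0.

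Lists were not alike in these near misses. Of the 213 regions, 89 (41.8%) lacked only the naive CD8+ list of animal 1 before treatment, the shortest of all, and 30 (14.1%) only its list after treatment. The naive CD4+ list of animal 2 after treatment was the missing one for 38 (17.8%), and each of the other 5 lists for 5 to 21. Of the 145 regions, 108 had their one memory peak in a CD4+ list and 37 in a CD8+ list.

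Width, peak number and position are given as descriptions and were not tested. Their merged width had a median of 1117 bp, with 930 to 1422 bp between the quartiles, against 2081 bp for all 27858 regions. A single peak in each naive list was found for 342 members (92.7%), against 81.6% of all 27858. Summits of the 8 lists fell within 100 bp for 207 members (56.1%) and for 61.4% of all 27858, with a median spread of 72 bp in members and 55 bp in all. Members occurred on all 21 chromosomes with peaks. Their share of the regions open in the 8 naive lists was highest on chromosome 5, with 20 of 931 (2.15%), and chromosome 2, with 33 of 1611 (2.05%), and lowest on chromosome 19, with 11 of 1659 (0.663%).

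The regions next to a member were more often open in naive than in memory lists, a comparison given without a test. Of the 738 regions immediately left or right of a member, 430 (58.3%) were open in more naive than memory lists and 70 (9.49%) in more memory than naive lists. Among the neighbours of all 27858 regions these shares were 23.7% and 23.8%. A lean of at least 4 lists towards naive cells was found for 199 of the 738 (27.0%), against 6.98% of the neighbours of all 27858, and one of at least 4 lists towards memory cells for 12 (1.63%), against 6.499%. Regions open in all 16 lists made up 30.5% of the neighbours of members and 48.6% of those of all 27858. Some members are neighbours of each other and count here, and their lean towards naive cells is fixed by the rule. Shares without them were not taken.

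**Figure D2:**
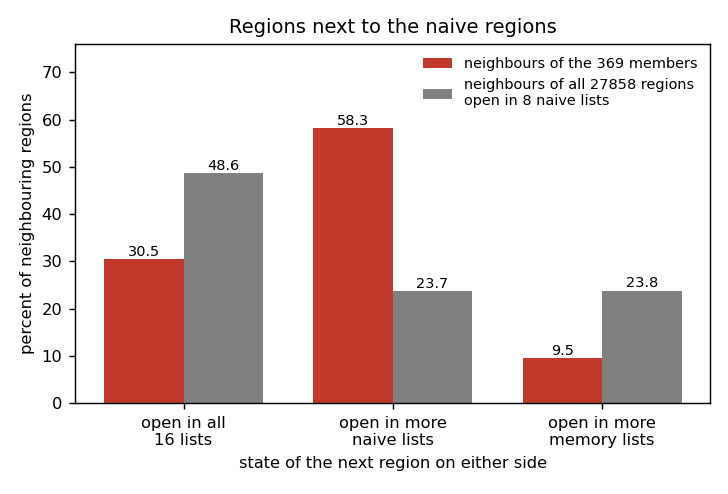
Share of neighbouring regions (vertical axis, percent) by their own state (horizontal axis), for the next region on either side of the 369 members (red) and of all 27858 regions open in 8 naive lists (grey). Next to members 58.3% were open in more naive lists and 9.49% in more memory lists.

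Some members lay near each other. Another member lay within 50 kb of 78 members (21.1%), in 26 pairs and 8 groups of 3 or 4. The same share was not taken for other sets of regions, so whether members lie closer together than other regions was not tested. The 8 groups held 26 members, and no region inside their spans was open in more memory than naive lists. The members among these regions have no memory peak by the rule. The densest was chr1:62069046-62076473, where 3 members in 7.43 kb had mean percentiles of 15.8, 24.1 and 40.6 and no other region lay between them. On chromosome 2 a group of 3 from 28866282 to 28914852 had means of 22.4, 35.2 and 44.2. A group of 4 followed from 29290987 to 29364944, with means of 19.2, 14.5, 41.7 and 23.9, among 22 regions of which 19 leaned to naive cells and 3 were open in all 16 lists. Further groups on chromosome 2 spanned 127339880 to 127384418, which includes the member described above, and 142959066 to 143023138. On chromosome 7 a group of 4 from 131041244 to 131078689 had means of 6.30, 25.8, 16.7 and 27.7. Chromosome 16 held groups of 3 from 370693 to 387793 and from 75207173 to 75268538. Of the 26 grouped members 23 had the higher mean in naive CD8+ lists, where 68.6% of all members and 55.8% of all 27858 regions did. In the lineage comparison given below, 7 of the 26 passed as higher in naive CD8+ lists and 0 as lower. Of all members 17.3% passed as higher and 2.44% as lower, against 5.16% and 4.81% of all 27858 regions. Whether grouped members differ in this from the other members was not tested.

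Some members stood far from any memory peak. The nearest peak of any memory list was a median of 9.56 kb away, and it was over 100 kb away for 38 members (10.3%). The 472 regions with the opposite pattern, open in all 8 memory and no naive list, lay a median of 6.07 kb from the nearest naive peak, and 17 (3.60%) of them over 100 kb. Members chr3:173043098-173044179 and chr3:173072459-173074131 shared a stretch of 3.72 Mb, from 171213504 to 174936051, in which no memory list had a peak and which held 3 regions in all. Member chr11:126289199-126290667 lay in a stretch of 3.18 Mb without a memory peak and was 1310 kb from the nearest one. Member chr15:67498719-67500457 was the only region of any kind in 3.35 Mb. The longest memory-free stretches around a member, 5.403 and 5.244 Mb, held chr18:55952744-55953632 and chr5:179766710-179769145 with 7 and 6 other regions open in naive lists. The lowest naive score was 231.2 for chr18:55952744, 314.1 for chr5:179766710 and 279.0 for chr3:173043098, in lists without scores below 200. It was 547.2 for chr11:126289199, 704.1 for chr15:67498719 and 1744 for chr3:173072459. These members were picked for their isolation after the values were seen. Only 13 members (3.52%) had a memory peak within 500 bp.

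The comparison of naive CD8+ with naive CD4+ cells asked whether regions shared by both lineages were equally strong in both. The rule did not compare strength between lineages, but it dropped regions with a peak in any memory list. Regions dropped in this way differed in this contrast by which memory lists had the peak, as given below. The part of this choice in the lineage result was not tested. Members ranked higher in naive CD8+ cells more often than lower. Of the 369, 64 were higher and 9 lower in naive CD8+ lists (limma on percentiles, Benjamini-Hochberg adjusted p under 0.05 over all 27858 regions). These are 17.3% and 2.44% of the members, while 5.16% of all regions tested were higher and 4.81% lower, 9.97% in all. The difference over all members had a median of 3.31 percentile points, against 0.388 over all regions tested. All 4 CD8+ lists lay above all 4 CD4+ lists for 98 members (26.6%), against 10.6% of all regions, and below them for 13 (3.52%), against 8.27%. With the animal as a block in the fit, 99 members were higher and 20 lower, beside 18.1% of all regions in either direction. With peaks ranked by the −log10 p at the summit 47 members were higher and 1 lower, beside 6.34% of all regions in either direction, and with peaks ranked by summed width 20 and 1, beside 1.98%. Libraries of a lineage came from 2 animals sampled at 2 times, so the p-values measure the spread between these lists. The main fit, without the block, took lists of the same animal as independent, which they are not. The lineage calls therefore rest on 2 animals. A stronger peak in a bulk library can mean more cells with open chromatin or more cuts per cell, and peak scores do not tell these apart.

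The 64 higher members had a median percentile of 33.9 in naive CD8+ lists and 9.45 in naive CD4+ lists, and 18 of them averaged under 5 in CD4+ lists. Their differences ran from 8.98 to 58.9 points, and each had the same direction in both animals. The calls used these same lists of both animals, so that agreement is not a separate replication. The 9 lower members had medians of 8.44 in CD8+ lists and 25.3 in CD4+ lists, with differences of 9.54 to 20.8 points.

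Member chr11:3343528-3345660 differed most. It had percentiles of 60.6 and 59.6 in naive CD8+ cells of animal 2 and 77.5 and 70.8 in those of animal 1, after and before treatment. In naive CD4+ cells it had 2.92 and 1.56 in animal 2 and 23.4 and 5.13 in animal 1. No CD4+ list came near a CD8+ list, and the difference was 58.9 ± 5.68 points (SE, limma adjusted p = 0.00160). Member chr11:3393264-3393994 lay 47.6 kb from it.

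Member chr11:68120495-68122251 had 54.8 and 54.6 in naive CD8+ cells of animal 2 and 47.1 and 56.6 in those of animal 1, after and before treatment. In naive CD4+ cells it had 2.76 and 2.11 in animal 2 and 0.111 and 1.85 in animal 1. This peak was of middling rank in CD8+ cells and among the weakest called in CD4+ cells, a difference of 51.6 ± 2.39 points (SE, adjusted p = 0.000124). Member chr3:86409051-86410998 followed with 39.2 ± 3.90 points and chr1:125026246-125027374 with 39.1 ± 3.65 (SE, adjusted p = 0.00173 and 0.00147). Member chr15:112908526-112911792 was of middling rank in CD4+ lists and higher in CD8+ lists. It had 76.4 and 72.8 in CD8+ cells of animal 2 and 75.01 and 65.2 in those of animal 1, against 19.99 and 42.8 in CD4+ cells of animal 2 and 45.2 and 38.2 in those of animal 1, after and before treatment. The lineages did not overlap there either (35.8 ± 5.76 points, SE, limma adjusted p = 0.0102), but the call was lost without both naive CD8+ lists of animal 1.

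In the opposite direction chr14:14979876-14981056 had 8.64 and 8.95 in naive CD8+ cells of animal 2 and 1.58 and 10.4 in those of animal 1, after and before treatment. In naive CD4+ cells it had 22.6 and 32.5 in animal 2 and 25.4 and 32.3 in animal 1. Every CD8+ list lay below every CD4+ list, by 20.8 points on average (SE 2.24, adjusted p = 0.00233). The other 4 lower members by size were chr13:97078507-97079601, chr12:2251136-2252919, chr17:72975452-72976906 and chr18:58188731-58189879, with differences of -20.1, -18.2, -18.2 and -14.3 points. The call for chr13:97078507 was close to the threshold (limma adjusted p = 0.0496) and was lost when any 1 naive list other than the CD8+ list of animal 2 before treatment was left out. The calls for chr12:2251136 and chr18:58188731 were also lost without some single lists, with adjusted p of 0.0558 to 0.0726 and 0.0594 to 0.0618. Within the 4 naive lists of animal 2 alone none of these 5 passed, and with summit −log10 p none did either. Of the 10 strongest members described above, 3 were higher in CD8+ lists, namely chr19:1849058 (adjusted p = 0.0154), chr9:7750731 (0.0213) and chr10:76022547 (0.0189), and the strongest of all, on chromosome 5, was 9.94 points lower without passing (adjusted p = 0.0714).

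**Figure D3:**
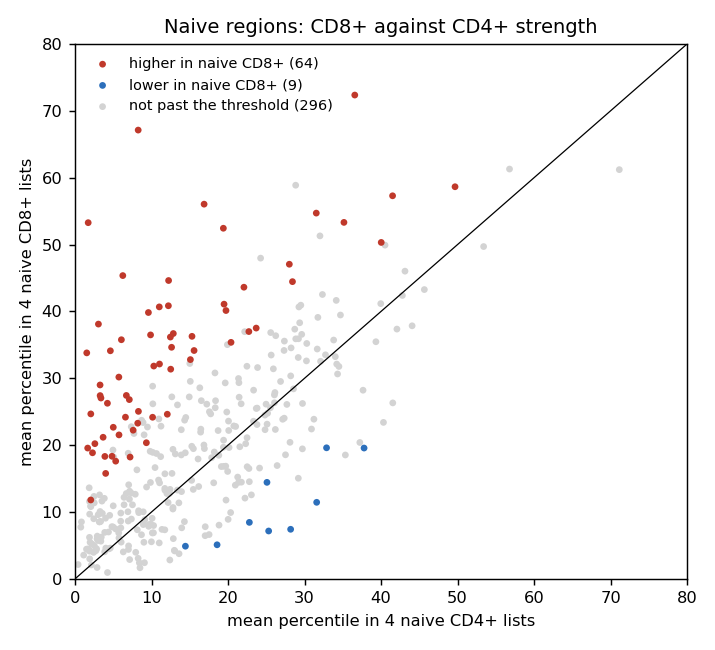
Mean percentile of each member in the 4 naive CD8+ lists (vertical axis) against the 4 naive CD4+ lists (horizontal axis), with the line of equality. Red points (64) were higher and blue points (9) lower in CD8+ lists past the threshold, and most red points lie at CD4+ percentiles under 20.

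**Figure D4:**
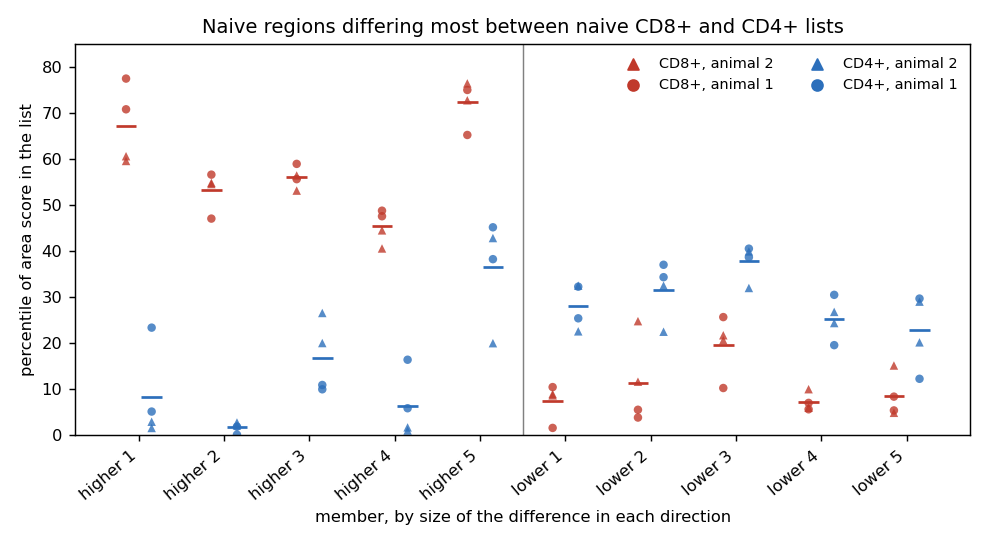
Percentile in each naive list (vertical axis) of the 5 members with the largest difference in each direction (horizontal axis, in the order given in the text). Red marks are CD8+ and blue CD4+ lists, triangles animal 2 and circles animal 1, and short lines the means of 4 lists. The CD8+ and CD4+ marks overlap for chr13:97078507 and chr18:58188731 and for none of the other 8.

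The lineage difference was also taken within each animal. The median over members of the CD8+ minus CD4+ difference was 5.59 points in animal 2 and 2.20 in animal 1, while over all regions tested it was 0.0628 and 0.741. In animal 2 alone 67 members (18.2%) passed, each of them higher in CD8+ lists, against 6.48% of all regions. In animal 1 alone 43 were higher and 14 lower, together 15.4% of the members against 9.56% of all regions. Each of these fits used the 4 naive lists of 1 animal, where the lists before and after treatment were the only replicates of a lineage. Their calls therefore rest on the spread between lists of the same animal and are not replicated over animals. The mean was higher in CD8+ lists in both animals for 196 members and lower in both for 80. It was higher in animal 2 only for 74 and in animal 1 only for 19. This split was not taken over all regions tested. In animal 2 the mean was higher in CD8+ lists for 73.2% of members, against 51.2% of all regions. In animal 1 it was higher for 58.3% of members, against 57.9%. Without the 2 naive CD8+ lists of animal 1, the shortest, 50 members were higher and 1 lower, together 13.8% against 4.77% of all regions. In a limma fit of the difference between animals no member passed, 58 (15.7%) having an unadjusted p under 0.05, against 8.68% of all regions, while 8 of all 27858 regions passed (0.0287%), 7 with the larger CD8+ minus CD4+ difference in animal 2 (0.0251%) and 1 with the smaller (0.00359%). Member chr16:370693-374168 came nearest by p. It had 53.2 and 54.6 in CD8+ against 37.6 and 29.1 in CD4+ cells of animal 2, and 8.84 and 11.9 in CD8+ against 36.0 and 34.1 in CD4+ cells of animal 1, after and before treatment (limma adjusted p = 0.171).

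Regions open in all 8 naive lists differed in this respect with their presence in memory cells. The median CD8+ minus CD4+ difference was 3.31 points in the 369 members, 2.85 in the 145 regions open in 1 memory list, 1.09 in the 188 open in 2 and 0.661 in the 206 open in 3. It was -5.22 in the 646 regions open in 4 memory lists and 0.469 in the 24333 open in all 8. The value also varied with which memory lists had the peak. In the 461 regions open in the 4 memory CD4+ lists and no memory CD8+ list the median was -8.71, and 15.2% were higher in naive CD8+ lists. In the 32 regions open in the 4 memory CD8+ lists and no memory CD4+ list it was 17.1, and 87.5% were higher, while among members 68.6% were. These medians were not tested.

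**Figure D5:**
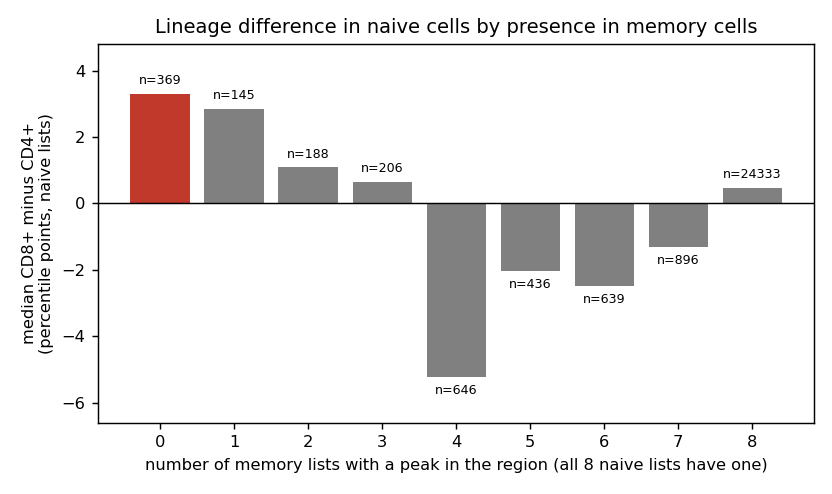
Median CD8+ minus CD4+ difference in naive lists (vertical axis, percentile points) of regions open in all 8 naive lists, by the number of memory lists that also had a peak (horizontal axis). The 369 members (red) stand at 3.31, and the number of regions is given at each bar, with the lowest value, -5.22, for 4 memory lists.

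The treatment comparison asked whether the naive regions changed in strength in naive cells over cyclodextrin dosing. No member passed the limma test in either direction, while 5 of the 27858 regions did (0.0179%), 2 higher (0.00718%) and 3 lower (0.0108%) after treatment. At an unadjusted p under 0.05 there were 15 members (4.07%), against 5.99% of all regions. The median difference over members was 0.139 points, 291 members differed by under 5 points, and the median standard error of a member was 3.44 points. All 4 lists after treatment lay above all 4 before for 1 member (0.271%), against 1.52% of all regions, and below them for 5 (1.36%), against 0.948%. With the animal as a block the count of members also stayed at 0, and 31 members (8.40%) had an unadjusted p under 0.05, against 9.61% of all regions.

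The member nearest to a call was chr14:53758514-53759361. After treatment it had percentiles of 2.87 in CD8+ and 9.11 in CD4+ cells of animal 2 and 1.01 and 0.470 in those of animal 1. Before treatment these values were 21.1, 19.8, 20.6 and 19.2. Every list after treatment lay below every list before it, by 16.8 points on average (SE 2.36, unadjusted p = 0.000140, limma adjusted p = 0.388). Members chr5:36920647-36921572 and chr13:39173031-39173812 were next among those lower after treatment, with -11.3 and -6.66 points. Those higher after it were led by chr3:878798-880957, chr6:109166996-109168315 and chr1:192932661-192933751, with 10.4, 9.0001 and 8.04 points. None of these 5 passed (adjusted p = 0.823 each). Member chr3:878798 lies 19.9 kb from chr3:857153, one of the 10 strongest.

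Change over treatment was also compared between the lineages. No member and no region of all 27858 passed the limma test of that difference (0%), with 5 members (1.36%) and 1.69% of all regions at an unadjusted p under 0.05. The first by p among members higher in CD8+ cells were chr5:138030256-138031525, chr6:69950744-69952574 and chr9:29181145-29182493, with 15.2, 26.3 and 16.5 points. Those lower were led by chr7:40960823-40961906, chr9:65638235-65639162 and chr17:72975452-72976906, with -9.72, -10.2 and -9.39 points (limma adjusted p = 1 for all 6).

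More members passed for animal than for treatment. In naive libraries of animal 2 against animal 1, 30 members were higher and 19 lower (limma adjusted p under 0.05), which is 8.13% and 5.15%, against 4.61% and 4.29% of all regions tested, 8.9% in all. All 4 lists of animal 2 lay above all 4 of animal 1 for 26 members (7.05%), against 5.57% of all regions, and below them for 17 (4.61%), against 5.74%. The share of members that passed in either direction was 13.3%. It was 5.96% to 8.67% with any 1 of the 8 naive libraries left out, against 4.46% to 5.66% of all regions. Without both naive CD8+ lists of animal 1 it was 2.71%, with 3 higher and 7 lower, against 1.76% of all regions. The lists of a side came from 1 animal, so these values describe these animals as the titles name them. Member chr1:12409307-12410845 had 40.1 and 41.1 in CD8+ and 30.7 and 33.2 in CD4+ cells of animal 2, against 13.0 and 4.44 in CD8+ and 4.26 and 2.82 in CD4+ cells of animal 1, after and before treatment. The animals did not overlap in it (30.1 ± 2.34 points, SE, adjusted p = 0.000931). Members chr14:59199474-59200724, chr20:72342208-72343667, chr18:64402522-64403700 and chr6:169339358-169340367 followed, with 29.0, 28.1, 27.8 and 21.4 points.

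Lower in animal 2 by the widest margin was chr10:72683648-72685827. It had 1.48 and 1.15 in CD8+ and 4.09 and 7.23 in CD4+ cells of animal 2, against 32.9 and 30.4 in CD8+ and 38.8 and 40.8 in CD4+ cells of animal 1, after and before treatment (difference -32.2, SE 1.90, limma adjusted p = 0.000322). Here too the animals did not overlap. Members chr4:29012143-29013468, chr14:9007100-9008205, chr11:64894060-64894988 and chr4:37881503-37883046 followed, with -30.4, -26.8, -23.4 and -23.1 points. The call for chr4:37881503 was lost without any 1 of 5 lists (limma adjusted p = 0.0528 to 0.0805), namely the 4 CD4+ lists and the CD8+ list of animal 2 before treatment. Over all members the median difference between animals was 3.20 points in CD8+ and -0.418 in CD4+ lists. Both the animal and the lineage comparison were passed by 5 members, a count that was not taken over all regions tested.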

How the data were processed

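ATAC-seq peak lists of 16 sorted T-cell libraries were used, 1 list per library. Per the submitters' processing notes, reads were handled with cutadapt 1.18, Bowtie2 2.3.4.1 and Genrich 0.6 on the build rheMac10; per the labels' protocols, libraries took 11 to 15 PCR cycles. The deposited lists give for each peak an area score by the authors' peak caller and a deposited −log10 p at its summit, with no q-value. Lists were not pooled over libraries. How the caller's settings were chosen is not given in the sources used here, and depth per library is unknown, so no interval for a single list can be given.

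Peaks sharing at least 1 bp over the 16 lists were merged. Strength was the percentile of the area score of a region's highest peak among the regions open in all 8 naive lists, taken within each list. Percentiles were compared with limma 3.58.1 in R 4.3.3 (empirical Bayes with a trend, lineage and time as terms, the animal or an interaction added where that was the comparison), p-values being adjusted by Benjamini-Hochberg across all 27858 regions with calls at 0.05. The procedure was tested on simulated data in which lists varied independently, so the sharing of animals between lists was not part of that test. Groups follow the sample titles, since file names number the second animal differently between populations. Libraries of an animal share that animal, so the numbers pair the samples: deviations from group means of same-animal lists correlated at 0.374 to 0.561 over 6 pairs of groups.

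The members and lists were chosen with earlier results of these data known. Regions named in the text are the 10 strongest and 3 weakest members by their lowest list, the 3 strongest near misses of each kind, for each comparison the 5 largest calls in each direction or, with no call, the 3 smallest p, groups of at least 3 members within 50 kb, and the members in the longest stretches without a memory peak, which were picked after their values were seen. Alternatives covered list length, thresholds, merging, the measure of strength, the animal block and each list left out. The fits within 1 animal or 1 lineage, those without both naive CD8+ lists of animal 1 and the fit of lineage by animal were chosen after seeing the data. Planned counts of genes and motifs at members were not made, since no genome or annotation of this build was used here.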

Additional observations from a re-analysis of the deposited data

Results flagged for a closer look

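Of 104 groups of 4 lists examined for a list far from the other 3, 5 had one. The limit used is one that about 1 in 20 independent groups would pass by chance. Most groups here belonged to members named for their values and shared the same lists, so that rate need not hold. The cause of the outlying values was not tested. Member chr11:121867063 stood at the 42.6th percentile in naive CD4+ cells of animal 1 after treatment, against 2.75 to 5.73 in the other 3 CD4+ lists. Member chr11:3343528 stood at 23.4 in that same list, against 1.56 to 5.13 in the others. Member chr1:62074298 stood at 45.9 in naive CD4+ cells of animal 1 before treatment, against 37.7 to 38.2 in the others. Member chr13:100184938 stood at 11.9 in naive CD8+ cells of animal 1 before treatment, the shortest list, against 21.6 to 22.8 in the others. The median percentile of all members was 11.5 in naive CD4+ cells of animal 2 after treatment, against 13.6 to 13.7 in the other CD4+ lists.

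The median change of the members over treatment had opposite signs in the 2 animals. In animal 2 it was -0.302 points in naive CD8+ and -0.783 in naive CD4+ cells, and in animal 1 it was 0.826 and 0.808. This difference was not tested.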

How the results depend on the processing

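The set of members moved with the libraries required and with the threshold on peaks. Animal 1 alone gave 755 regions, animal 2 alone 1168, and leaving out both naive CD8+ lists of animal 1 gave 616. Lists cut to equal length gave 406, of which 267 were among the 369. A stricter summit −log10 p gave 260 with 125 of the 369 (33.9%), an area score of at least 400 gave 279 with 131 (35.5%), and peaks covering at least 50% of the region gave 335 with 226 (61.2%). The share of members past the threshold for lineage was 19.8%, against 9.97% of all regions. It became 13.0% with summit −log10 p against 6.34% of all regions, 5.69% with summed width against 1.98%, and 32.2% with the animal as a replicate block against 18.1%. The share for animal was 13.3%, against 8.9% of all regions. It became 8.13% with summit −log10 p against 6.87%, 0.542% with summed width against 0.883%, and 2.71% without both naive CD8+ lists of animal 1 against 1.76%. In naive CD8+ lists alone it was 0.813% against 0.678%, in naive CD4+ lists alone 1.08% against 0.485%, and with 1 list left out 5.96% to 8.67% against 4.46% to 5.66%. Counts for treatment and for its difference between lineages were 0 in every fit run, the replicate block included. Of 629 recomputed values of named members, 557 stayed on their side of the threshold, 72 kept the direction but no longer passed, and 0 of those that had passed changed sign. The losses were 38 of 180 values of members called for lineage and 34 of 170 of those called for animal. All other values belonged to members that had not passed and had no call to lose. The cause of the losses was not tested. Because scores under 200 are not in the lists, a weak peak and a missing one cannot be told apart near that score, and 87 members had a lowest score under 250.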
